A study of Mus musculus with 6 samples.

Results

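The Slc22 family holds membrane carriers that move organic cations, carnitine, organic anions and urate across the tubule wall. The 9 members described here are Slc22a2, Slc22a4, Slc22a5, Slc22a6, Slc22a7, Slc22a8, Slc22a12, Slc22a13 and Slc22a18. They were chosen by name and ordered by substrate, out of 24 Slc22 genes and 22180 genes measured in all. Gene expression was read in 6 samples of adult mouse kidney, 1 Affymetrix Mouse Gene 2.1 ST array per sample. The 3 arrays labelled Pax28 dKO (dKO 1, dKO 3 and dKO 5) come from mice with floxed Pax2 and Pax8 alleles on both chromosomes and the tamoxifen-inducible Rosa26CreER. The 3 Control arrays (numbered 2, 4 and 6) are of mice without Cre that received the same tamoxifen. Both groups had 3 daily injections of 50 mg/kg in week 8 of life and a second round in week 10, and RNA was made from bisected kidneys 14 days after the final dose. By the sex given in the labels, the males are dKO 1 and control 4, and the other 2 arrays of each group are female. Rosa26 is active in most cell types, so recombination need not be limited to tubules, and the Controls lack Cre altogether. Recombination itself was not measured here.

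In the proximal tubule, organic cations and anions are taken from the blood side by carriers of this family and passed on to the urine by other transporters. The anion carriers exchange their substrates for dicarboxylates, the cation carriers follow the membrane potential, and the carnitine and urate carriers of the brush border return their substrates from the filtrate. Several of these genes are known to differ between male and female rodents.

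The targeted genes do not check the labels. Pax8 stood at 10.36 ± 0.24 log2 on the arrays labelled dKO and 9.0 ± 0.10 on the Controls (SD, n = 3 each), a log2 difference of 1.36 with a limma adjusted p of 0.0037. Pax2 stood at 6.25 ± 0.21 on dKO arrays and 5.98 ± 0.18 on Controls (SD, n = 3 each), with a limma adjusted p of 0.19. The labels do not name the deleted exons, and probes outside them check nothing. Directions are accordingly given for arrays as labelled. The kidney markers Umod, Lrp2, Slc12a1, Slc12a3 and Kap stood between 9.63 and 12.05 log2 on all 6 arrays, and none of them passed. Each had an unadjusted limma p under 0.05, with Umod and Slc12a3 higher on dKO arrays and Lrp2, Slc12a1 and Kap lower. Kap read 9.63 and 10.58 on the dKO females against 11.80 and 11.69 on the Control females. On the males it read 11.98 (dKO) and 12.05 (Control). The collecting duct marker Aqp2, a water channel, read 8.24 to 8.77 log2 on dKO arrays and 8.85 to 9.55 on Controls, a difference of -0.88 ± 0.16 (SE; limma adjusted p = 0.024). The podocyte marker Nphs1 lay between 5.28 and 5.79. Array medians lay between 3.81 and 3.87 log2. The labels name neither separate animals nor a batch, so a p-value here reflects only how far these 6 samples spread.

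Of the 9 carriers, 5 were lower on the arrays labelled dKO at a limma adjusted p under 0.05 and 0 were higher. The 5 are the cation carrier Slc22a2, the cation carrier Slc22a4, the urate carrier Slc22a12, the urate and nicotinate carrier Slc22a13 and the orphan Slc22a18. Over all genes, 7.2% passed, 3.08% as lower and 4.12% as higher. At an unadjusted limma p under 0.05 the count was 7 of 9 members, against 22% of all genes. The fitted log2 difference was below 0 for 8 of 9 members, with a median of -0.54 against -0.01 over all genes. It ran between -2.38 for Slc22a7 and 0.09 for Slc22a6. In 5 members (Slc22a2, Slc22a4, Slc22a5, Slc22a7 and Slc22a18) every dKO array lay below every Control array, an arrangement found in 10.8% of all genes, while the reverse arrangement (0 of 9 members) was found in 11.7%. For those 5 the exact two-sided permutation p of the group means was 0.1, the smallest that 3 against 3 arrays allow. In bulk tissue, fewer cells of a type and less RNA per cell cannot be told apart.

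**Figure D1:**
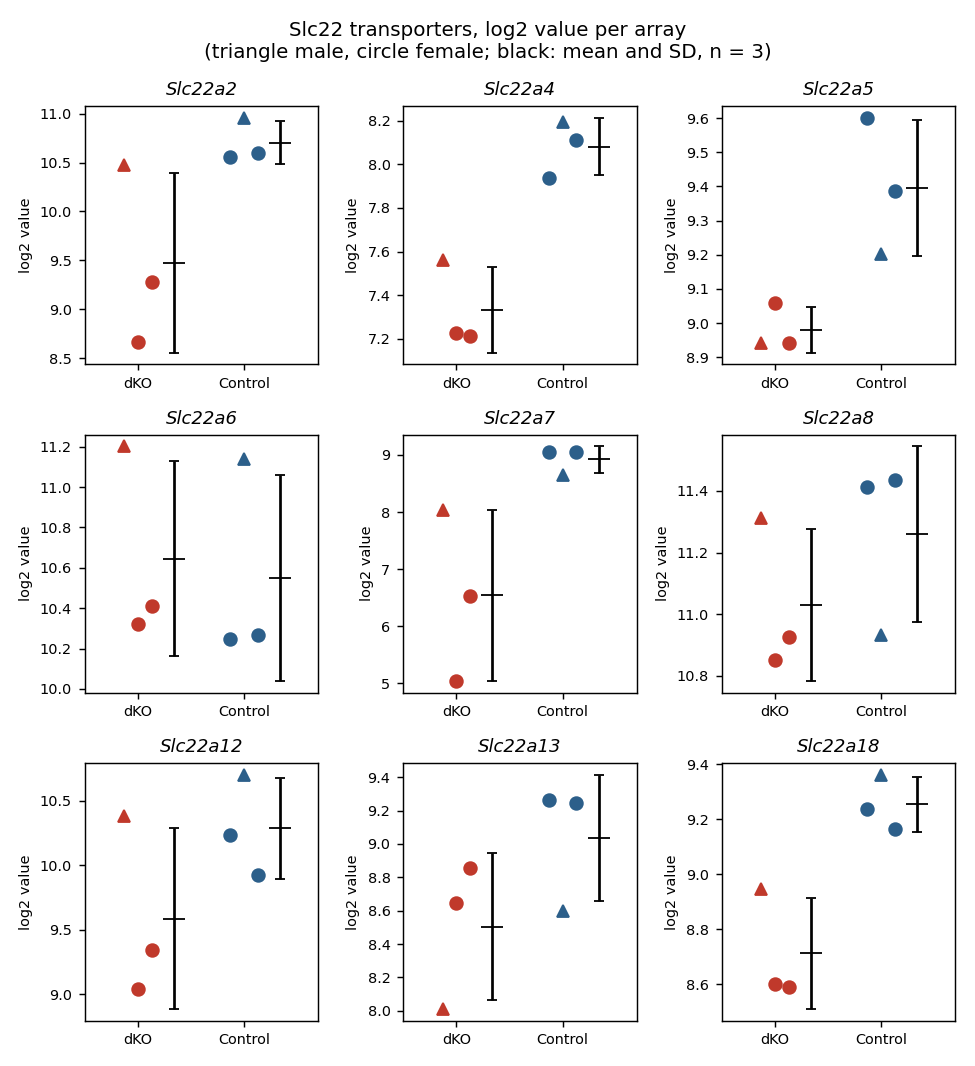
The log2 value of each of the 9 Slc22 genes (y axis, a scale of its own per panel that does not start at 0) on the arrays labelled dKO (left) and the Controls (right); triangles are males, circles females, and the black bar is the mean with SD of 3 arrays. All dKO arrays lie below all Control arrays for 5 genes, while Slc22a6 separates by sex.

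Slc22a2 encodes OCT2, the carrier that takes organic cations such as metformin from the blood side into proximal tubule cells. It read 10.48, 8.67 and 9.28 log2 on dKO 1, 3 and 5, against 10.55, 10.96 and 10.60 on controls 2, 4 and 6. The dKO females were low, and the dKO male lay just under the lowest Control. The means were 9.48 ± 0.92 on dKO arrays and 10.70 ± 0.22 on Controls (SD, n = 3 each). The sex-adjusted log2 difference was -1.23 ± 0.26 (SE), 2.34-fold lower, with a limma adjusted p of 0.038.

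Slc22a4 encodes OCTN1, known in human and mouse as a carrier of the fungal antioxidant ergothioneine and of organic cations. Its values were 7.56, 7.23 and 7.21 log2 on the dKO arrays, against 7.94, 8.19 and 8.11 on the Controls. The gap between the groups was wider than the range within either of them. The fitted difference was -0.75 ± 0.09 (SE), 1.68-fold lower, with a limma adjusted p of 0.0082. It was the member with the smallest p, and it passed in all 6 fits that left out a single array (log2 difference -0.80 to -0.68; limma adjusted p at most 0.041). Of these, the fits without dKO 1 and without control 4 are the same female-only fit.

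Slc22a5 encodes OCTN2, the sodium-dependent carnitine carrier that returns carnitine from the filtrate and whose loss causes systemic carnitine deficiency. It read 8.94, 9.06 and 8.94 log2 on the dKO arrays, against 9.60, 9.20 and 9.39 on the Controls. The groups did not overlap, but the gap between the nearest arrays was small. The log2 difference of -0.42 ± 0.10 (SE) missed the threshold (limma adjusted p = 0.058), with a 95% interval of -0.65 to -0.18. It passed with array weights, median centring, dim genes removed or a trended prior (adjusted p from 0.020 to 0.048).

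The 3 anion carriers gave 3 different patterns. Slc22a6 encodes OAT1, the blood-side exchanger that takes up p-aminohippurate. It read 11.20, 10.32 and 10.41 log2 on the dKO arrays, against 10.25, 11.14 and 10.26 on the Controls. The high array of each group was its male, and within each sex the groups were nearly level. The fitted difference was 0.09 ± 0.08 (SE; limma adjusted p = 0.54), and its 95% interval of -0.09 to 0.28 leaves out the falls seen in the 5 members that passed.

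Slc22a8 encodes OAT3, the blood-side carrier of larger anions such as estrone sulfate. It read 11.31, 10.85 and 10.93 log2 on the dKO arrays, against 11.41, 10.93 and 11.44 on the Controls. The dKO females lay below the Control females, while the dKO male lay above the Control male. Over both sexes the log2 difference was -0.23 ± 0.18 (SE; limma adjusted p = 0.54; 95% interval -0.67 to 0.20). Among the 4 females alone it was -0.54 with a limma adjusted p of 0.037.

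Slc22a7 encodes OAT2, a carrier of anions that include nucleotides. It had the largest fitted difference of the 9 and the widest spread. It read 8.04, 5.05 and 6.53 log2 on the dKO arrays, against 9.05, 8.65 and 9.06 on the Controls. All 3 dKO arrays were low, by very different amounts. The means were 6.54 ± 1.49 on dKO arrays and 8.92 ± 0.23 on Controls (SD, n = 3 each). The log2 difference of -2.38 ± 0.59 (SE), 5.21-fold lower, missed the threshold with a limma adjusted p of 0.063 and a 95% interval of -3.79 to -0.98. It was -3.26 among the females, where it passed (adjusted p = 0.017).

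Both urate carriers passed although their groups overlapped. Without the sex term neither Slc22a12 nor Slc22a13 passed (limma adjusted p = 0.38 and 0.36), and of the 9 members Slc22a4 alone did. Slc22a12 encodes URAT1, the brush border exchanger that reabsorbs urate. It read 10.38, 9.04 and 9.34 log2 on the dKO arrays, against 10.23, 10.70 and 9.92 on the Controls. The dKO male lay above both Control females and below the Control male. Its sex-adjusted log2 difference was -0.70 ± 0.16 (SE), 1.62-fold lower, and its limma adjusted p of 0.048 lay close to the threshold.

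Slc22a13 encodes the carrier known in human as OAT10, which moves urate and nicotinate. It read 8.01, 8.64 and 8.86 log2 on the dKO arrays, against 9.27, 8.60 and 9.24 on the Controls. Here the male of each group was the low array. The log2 difference was -0.53 ± 0.09 (SE), 1.45-fold lower, with a limma adjusted p of 0.021.

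Slc22a18 is an orphan carrier of the imprinted region around Cdkn1c, with no settled substrate. It read 8.95, 8.60 and 8.59 log2 on the dKO arrays, against 9.24, 9.36 and 9.17 on the Controls. The 3 Controls were close together and all above the dKO arrays. The fitted difference was -0.54 ± 0.08 (SE), 1.46-fold lower, with a limma adjusted p of 0.016.

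Several of these calls were lost when a single array was left out. Over all genes the count called fell in the same fits, from 1596 to between 344 and 1249. What part a given array had in a lost call was not tested. Leaving out dKO 3, control 2 or control 6 left 1 of 9 members called, leaving out dKO 5 left 2, and leaving out either male left 6 (Slc22a2, Slc22a4, Slc22a7, Slc22a8, Slc22a12 and Slc22a18). Slc22a2 and Slc22a12 lost their calls when dKO 3, dKO 5, control 2 or control 6 was omitted (limma adjusted p at most 0.14 and 0.13), as did Slc22a18 (at most 0.070). Slc22a13 lost its call in 5 of 6 such fits (up to 0.082), the exception being the fit without dKO 5. Those without dKO 1 and without control 4 are the same female-only fit. The sign of each member's difference was kept in all 6 fits. Other settings ended calls too. Slc22a2 missed with a trended and robust prior (limma adjusted p = 0.074) and without the sex term (0.19), Slc22a12 with quantile normalization (0.054), and Slc22a18 without the sex term (0.074).

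**Figure D2:**
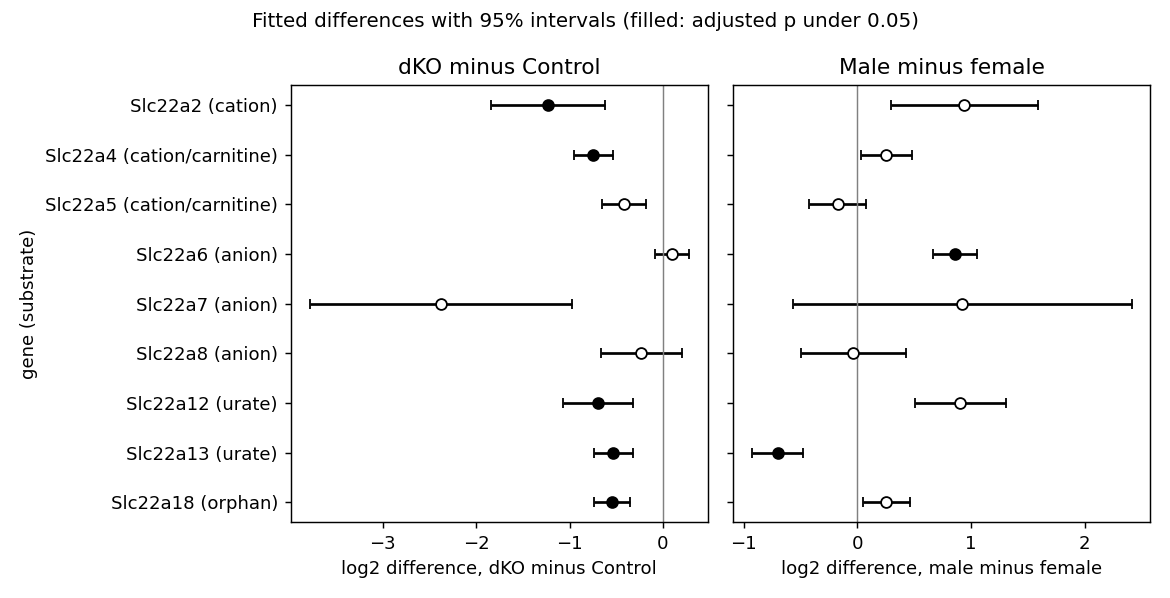
Fitted log2 differences (x axes) of the 9 Slc22 genes, dKO minus Control adjusted for sex (left) and male minus female adjusted for group (right), with 95% intervals from the fit over 6 arrays; filled points passed at an adjusted p under 0.05. The left panel has 5 filled points, all below 0, and the right panel has 2, Slc22a6 above 0 and Slc22a13 below 0.

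Slc22a13 passed for sex as well as for the dKO label, while Slc22a6 passed for sex alone. At a limma adjusted p under 0.05, 2 of 9 members differed between the 2 male and 4 female arrays, against 1.87% of all genes (1.25% higher in males and 0.618% higher in females). Slc22a6 was higher in males, at 11.20 and 11.14 log2 on the males against 10.25 to 10.41 on the females. That log2 difference was 0.86 ± 0.08 (SE), 1.81-fold, with an adjusted p of 0.0058. Slc22a13 was lower in males, at 8.01 and 8.60 log2 on the males against 8.64 to 9.27 on the females. The log2 difference was -0.70 ± 0.09 (SE; adjusted p = 0.021), so it was 1.62-fold higher in females. Slc22a12 had a male minus female difference of 0.91 ± 0.17 (SE) that missed the threshold (adjusted p = 0.055) but passed with a trended and robust prior (0.025) or dim genes removed (0.049), and Slc22a2 one of 0.94 ± 0.27 (adjusted p = 0.15). Slc22a8 had a difference of -0.04 with a 95% interval of -0.50 to 0.43. Slc22a6 lost its call when either male was left out, a fit with 1 male. Its log2 difference was then 0.88 without dKO 1 and 0.83 without control 4. Slc22a13 lost its call in 5 of 6 fits with an array left out, the exception being the fit without dKO 3.

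Of the 8 members with a negative fitted difference, 7 had a less negative value between the males than between the females, Slc22a13 being the exception. For Slc22a7 the dKO male differed from the Control male by -0.62 log2, while dKO 3 and dKO 5 differed from the mean of the Control females by -4.01 and -2.52. For Slc22a2 these differences were -0.48 on dKO 1, -1.91 on dKO 3 and -1.29 on dKO 5. Slc22a12 followed the same order with -0.32, -1.04 and -0.74. Slc22a4 was more even, with -0.63, -0.80 and -0.81, and so was Slc22a18 with -0.42, -0.60 and -0.61. The median over the 9 members was -0.42 on dKO 1, -0.61 on dKO 3 and -0.61 on dKO 5. Over all genes it was -0.003, -0.004 and -0.005 on the same arrays. Over all genes called lower it was -0.49, -0.71 and -0.65, but those genes were picked for low values on these same arrays.

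A genotype by sex term tested whether the male and female differences were unequal. It passed for 0 of 9 members after adjustment in limma and for 0.00451% of all genes. Without adjustment 3 of 9 had a p under 0.05, namely Slc22a2, Slc22a7 and Slc22a8, against 6.99% of all genes. The term rests on 1 male per group. It stood at 2.65 for Slc22a7 (95% interval 0.75 to 4.55, adjusted p = 0.62) and at 0.92 for Slc22a8 (0.50 to 1.33, adjusted p = 0.44), where a positive value means a difference that is less negative in males.

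**Figure D3:**
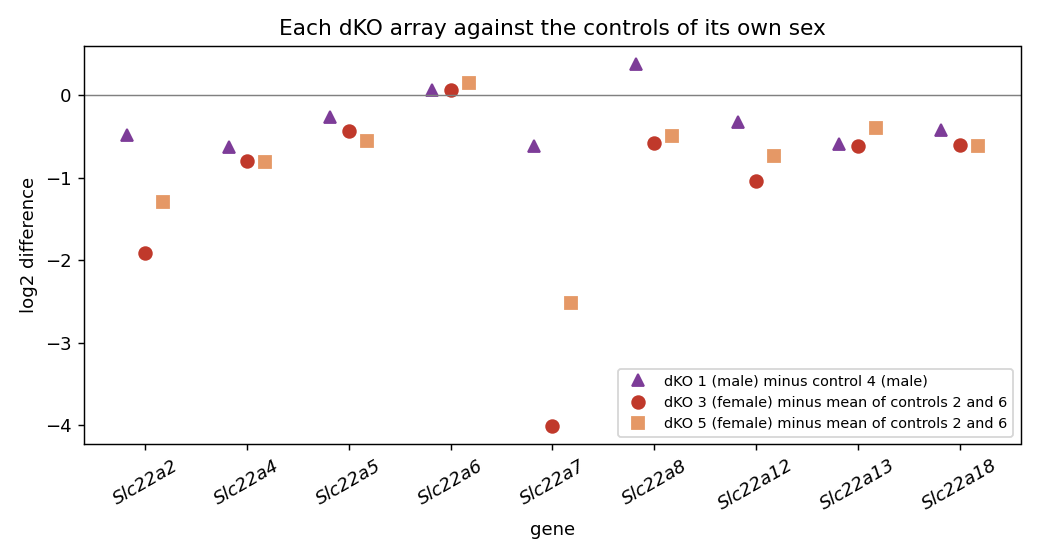
The log2 difference (y axis) of each dKO array from the Controls of its own sex for the 9 Slc22 genes (x axis); the triangle is dKO 1 against control 4, and the circle and square are dKO 3 and dKO 5 against the mean of controls 2 and 6. Slc22a7 spans -4.01 to -0.62, while Slc22a4 stays between -0.81 and -0.63 and Slc22a6 between 0.06 and 0.15.

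Promoter sequence is shown for the cation carrier Slc22a2 and the urate carrier Slc22a12, which were lower on dKO arrays, and for the neighbouring anion carriers Slc22a6 and Slc22a8, which did not pass. Slc22a8 and Slc22a6 follow each other on chromosome 19 with 0 protein-coding genes between them. RefSeq (GRCm38.p6) promoters were matched by symbol for 8 of 9 members, all but Slc22a7. Each run below is the 250 bases before the listed start, 5′ to 3′ on the gene's strand. Slc22a2 lies at chr17:12583939-12584188 on the plus strand. Slc22a12 lies at chr19:6543071-6543320 on the minus strand. Slc22a6 lies at chr19:8617746-8617995 and Slc22a8 at chr19:8592932-8593181, both on the plus strand. The listed start of Slc22a8 is inside the annotated gene, which has an earlier start too. All letters are lower case because no run held the HNF4 or Pax core given below, the only motifs searched. The HNF1 letters GTTAAT were not searched or marked, but they can be read in the printed runs of Slc22a6 and Slc22a8. How often they occur in all promoters was not counted, so nothing is drawn from them.
Slc22a2: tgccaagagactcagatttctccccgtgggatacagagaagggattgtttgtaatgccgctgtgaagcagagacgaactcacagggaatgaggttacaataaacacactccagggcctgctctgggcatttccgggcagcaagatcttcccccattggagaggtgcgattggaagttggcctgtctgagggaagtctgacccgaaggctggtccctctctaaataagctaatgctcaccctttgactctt
Slc22a12: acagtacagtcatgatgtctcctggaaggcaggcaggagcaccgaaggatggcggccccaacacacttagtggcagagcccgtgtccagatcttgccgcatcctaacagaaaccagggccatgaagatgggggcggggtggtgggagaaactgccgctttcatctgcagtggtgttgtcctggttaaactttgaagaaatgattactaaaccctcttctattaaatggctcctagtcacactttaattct
Slc22a6: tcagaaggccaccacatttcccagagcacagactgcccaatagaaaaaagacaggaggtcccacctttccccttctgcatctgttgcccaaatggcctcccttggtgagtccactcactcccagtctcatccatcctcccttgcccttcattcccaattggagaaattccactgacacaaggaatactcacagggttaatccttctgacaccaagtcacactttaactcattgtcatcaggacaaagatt
Slc22a8: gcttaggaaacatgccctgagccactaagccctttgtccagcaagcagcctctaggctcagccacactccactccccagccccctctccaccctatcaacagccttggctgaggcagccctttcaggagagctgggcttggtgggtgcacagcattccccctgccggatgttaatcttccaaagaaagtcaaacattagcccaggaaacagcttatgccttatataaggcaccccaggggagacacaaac

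Each of the 32851 promoters of the table was searched in windows of the same length. The HNF4 core CAAAGTC (reverse GACTTTG) was in 0 of 8 member promoters and in 3.84% of all promoters. The Pax core GTCACGC (reverse GCGTGAC) was in 0 of 8 and in 1.78% of all. The motifs do not overlap in these windows, both strands were searched, and a match is a run of letters, not a bound site. The OCTN pair Slc22a4 and Slc22a5 had the highest GC content of the 8, with 71.2% and 73.6%, against 47.6% to 55.2% in the others.

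The carriers were set beside 7 lists of genes that work with them or mark the same cells. The counts of each list are to be read beside the 3.08% of all genes that passed as lower and 4.12% as higher. In the list of carriers that pass organic ions across the apical membrane or take them up, 1 of 11 measured genes was lower and 1 higher, with a median log2 difference of 0.16. The lower one was Slco1a6, an organic anion transporting polypeptide (-0.80 ± 0.13, SE; limma adjusted p = 0.021). The higher one was Abcb1b, a P-glycoprotein drug efflux pump (1.76 ± 0.35, SE; adjusted p = 0.033), whose groups overlapped. Slc47a1, the MATE1 exchanger that passes OCT2's cations on to the urine, had -0.24 ± 0.09 (adjusted p = 0.16). The 2 calls of this list became 0 without dKO 3, control 2 or control 6, and 1 without dKO 5.

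In the urate list, 3 of 11 measured genes were lower and 1 was higher, with a median of -0.19. The lactate carrier Slc5a12, which supplies the counter-ion for URAT1, had -1.65 ± 0.24 (SE; limma adjusted p = 0.015). Slc17a4, a phosphate carrier relative that moves urate, had -0.98 ± 0.14 (adjusted p = 0.014), and the lactate carrier Slc5a8 had -0.51 ± 0.11 (adjusted p = 0.038). Xdh, the oxidoreductase that makes urate, was higher by 1.06 ± 0.19 (adjusted p = 0.025). The urate carriers Slc2a9 and Abcg2 did not pass, with 0.19 ± 0.13 and -0.26 ± 0.08. The 4 calls of this list became 0 without dKO 5, control 2 or control 6, 1 without dKO 3 and 3 without either male.

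Genes of dicarboxylate transport, which feed anion exchange, passed in 0 of 6 cases (median -0.16), with 3 under an unadjusted limma p of 0.05 beside 22% of all genes. Slc13a3, which takes up dicarboxylates on the blood side, had 0.25 ± 0.08 (SE; adjusted p = 0.13). Genes of carnitine supply and use passed in 0 of 9 cases (median -0.09), with 1 under an unadjusted limma p of 0.05. Of 10 measured regulators and scaffolds, 1 was higher, the oestrogen receptor Esr1 (1.24 ± 0.18, SE; adjusted p = 0.015), a call lost without control 6 and without the sex term. Hnf4a, which drives proximal tubule carriers, had -0.52 ± 0.14 (adjusted p = 0.086).

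Proximal tubule markers lay lower on the dKO arrays as well. All 8 pan-proximal markers had a fitted difference below 0, and in 7 of 8 every dKO array lay below every Control array, beside 10.8% of all genes and 5 of the 9 Slc22 members. At an unadjusted limma p under 0.05 the count was 7 of 8, and after adjustment 2 were lower, Miox (-0.92 ± 0.10, SE; limma adjusted p = 0.0067) and the phosphate carrier Slc34a1 (-0.47 ± 0.08; adjusted p = 0.022), and 0 were higher. Their median log2 difference was -0.41, beside -0.54 for the 9 Slc22 genes. Of 7 late proximal markers, 3 were lower (median -0.31): the protease subunit Mep1b (-1.91 ± 0.42), Slc7a9 (-0.77 ± 0.15) and Slc5a8. The groups overlapped for Mep1b and Slc5a8, where the dKO male lay above both Control females. Mep1b differed by -2.62 between the females and by -0.50 between the males. Without the sex term, 0 late proximal and 2 pan-proximal markers were called. Leaving out dKO 3, dKO 5, control 2 or control 6 left 1 pan-proximal and 0 late proximal markers called, and leaving out either male left 4 and 2. The strongly male genes Slc7a13 and Cyp7b1 of the late segment had -0.22 ± 0.17 and 0.15 ± 0.08 and did not pass. The part of proximal tubule content in the Slc22 differences was not tested.

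Markers of other cells moved with the groups as well. Here too the share of all genes that passed was 3.08% as lower and 4.12% as higher. Of 7 macrophage markers, 6 were higher on the dKO arrays (list median per array 6.47 to 7.04 log2 on dKO arrays and 5.50 to 5.69 on Controls). Of 5 fibroblast markers, 3 were higher (7.97 to 8.25 on dKO arrays and 7.37 to 7.86 on Controls). The 3 proliferation markers Mki67, Top2a and Ccna2 were all higher. Fat markers were highest on the Control females, with a list median of 6.13 and 6.21 on controls 2 and 6. It was 3.81 on the Control male and 4.09 to 5.09 on dKO arrays. Between the females their log2 differences, dKO minus Control, ran from -3.35 (Ucp1) to -0.39 (Lep). Between the males, 1 array each, they ran from 0.17 (Lep) to 1.58 (Ucp1). None of the 6 fat markers passed in limma, with 0 under an unadjusted p of 0.05, and 3 of the 4 adrenal markers lay under the dim limit of 2.98 on average. Of 4 liver markers, 1 was higher, Ttr. With controls 2 and 6 both left out, control 4 is the only Control, so the sex-adjusted difference is that of the male pair already given and is no separate check. The part of these other cells in the Slc22 differences was not tested.

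Across the 6 arrays Slc22a2, Slc22a4, Slc22a7, Slc22a12 and Slc22a18 varied together, with a Pearson's r of 0.79 to 0.97 for each pair. Slc22a5, Slc22a6, Slc22a8 and Slc22a13 followed them less closely, with -0.18 to 0.75. Slc22a4 and Slc22a18 were the most alike pair, with a Pearson's r of 0.97 over 6 arrays, and Slc22a2 and Slc22a7 followed with 0.96. Slc22a6 and Slc22a13, the pair with opposite sex differences, were the least alike at -0.82. These values describe 6 arrays that share the group and sex differences already given. Among 7857 other genes with a mean log2 of at least 6, the closest to Slc22a2 were Cyp2f2 (0.998 over 6 arrays) and Slc29a3. The closest to Slc22a6 were Cyp2j13 and Cyp7b1, to Slc22a7 Tmem106a and Acad12, and to Slc22a12 Atp6v1a and Fnip2. For Slc22a4 they were Mapt and Cenpx, for Slc22a5 Lpin2 and Fbxo21, and for Slc22a8 Syvn1 and Chic1. For Slc22a13 they were Ppp2r3a and Robo4, and for Slc22a18 Sh3bp5 and Gm11992. Each of these genes had a Pearson's r of 0.986 or more. They were picked as the closest of 7857 genes over 6 arrays, so a high r follows from the search. Whether it exceeds what such a search gives by chance was not tested.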

How the data were processed

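Affymetrix Mouse Gene 2.1 ST arrays read the RNA of 6 mouse kidney samples, with 400 ng of RNA per labelling. The authors deposited log2 values, 1 per transcript cluster. The submitters' processing notes list RMA, limma and R 3.4.0 with no roles; filters and build: not given in the sources used here. Of 41345 clusters, 23521 carried 1 gene symbol, 1814 several and 16010 none. Only the first kind was used, with symbols looked up by gene identifier in RefSeq (GRCm38.p6; 23328 matched). The highest-mean cluster stood for each of 1082 genes with several, which left 22180 genes. Differences were fitted with limma 3.58.1 in R 4.3.3, with genotype and sex as terms (3 residual and 6.72 total degrees of freedom) and Benjamini-Hochberg adjustment over all 22180 genes at a threshold of 0.05. A difference is dKO minus Control, or male minus female, with limma's moderated SE and 95% intervals. A genotype by sex term had 2 residual degrees of freedom. The fit was tested on simulated data. Dim genes are those with a mean log2 below 2.98, the 25th percentile. Alternatives were omission of the sex term, the 4 females alone, each array left out, array weights, a trended and robust prior, median centring, quantile normalization, dim genes removed and the mean of a gene's clusters. The fit without controls 2 and 6 and the tests of other Slc22 genes were added after seeing the data. The members and lists were chosen with earlier results of these data known. The text names all 9 members, other Slc22 genes that passed and up to 4 called genes of each list; any other gene was chosen after its values were seen. The 7 partner lists held 66 genes, of which 58 were measured; the others were not analysed here. The 6 arrays limit the precision. Near-identical family members may share probes, so their values are uncertain.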

Additional observations from a re-analysis of the deposited data

Results flagged for a closer look

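Slc22a8, the OAT3 anion carrier, had differences of opposite sign in the sexes. Its log2 difference, dKO minus Control, was 0.38 on the male arrays (1 against 1) and -0.54 on the female arrays (2 against 2), with both dKO females below both Control females. The genotype by sex term of limma did not pass (adjusted p = 0.44), and the male value rests on a single pair of arrays.

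Slc22a21, a relative of the OCTN carriers Slc22a5 and Slc22a4, lies between them and showed the opposite arrangement. Its log2 difference was -0.11 on the male arrays and 0.37 on the female arrays. Its interaction term did not pass either (limma adjusted p = 0.81). It shares a family with near-identical members, so its values are uncertain.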

How the results depend on the processing

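Of 270 checks of a single member under an alternative, 208 were unchanged in call and direction, 39 lost a call, 13 gained one, 6 changed sign without a call in either fit, and 4 male-only values, 1 of them of opposite sign (Slc22a8), moved by over 1 SD of the Controls. No called member changed sign. With controls 2 and 6 left out, the genotype difference is that of dKO 1 against control 4 with 1 residual degree of freedom, so its counts of 0 are close to fixed by the design and say nothing of the other arrays. The count of 5 called members became 1 without the sex term, 0 with controls 2 and 6 left out (3 under an unadjusted limma p of 0.05), and 1 to 6 with single arrays left out. The count of 1596 called genes became 471, 0 (2329 under an unadjusted limma p of 0.05) and 344 to 1249 in the same order, and the 11 called partner genes became 5, 0 (9 unadjusted in limma) and 1 to 14, or 19 with a trended robust prior. The 2 members called between the sexes became 1 without the genotype term, 0 with controls 2 and 6 left out (8 under an unadjusted limma p of 0.05) and 0 to 2 with single arrays left out. Leaving out a male gives the female-only fit for genotype. The count for the sexes was 3 with a trended and robust prior or dim genes removed. Sign changes among uncalled values were these. With controls 2 and 6 left out, dKO minus Control was 0.38 for Slc22a8, 0.14 for Slc22a13b, -0.26 for Slc22a14, 0.048 for Slc22a16, 0.24 for Slc22a20 and -0.11 for Slc22a21, and male minus female was 0.42 for Slc22a8. With single arrays left out, dKO minus Control ran from -0.42 to 0.16 for Slc22a13b, -0.058 to 0.32 for Slc22a14, -0.078 to 0.12 for Slc22a15, -0.20 to 0.013 for Slc22a16 and -0.21 to 0.12 for Slc22a20, and male minus female from -0.40 to 2.25 for Slc22a7 and -0.49 to 0.42 for Slc22a8. Slc22a15 had -0.078 among the females and -0.019 with quantile normalization. The cause of the other changes was not tested. No paired analysis was possible because the groups share no replicate number.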

Other observations

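The 15 measured Slc22 genes outside the 9 members hold a block of rodent anion carriers on chromosome 19, beside Slc22a8 and Slc22a6, with some of the largest differences of the family. Of the 15, 4 were lower on the arrays labelled dKO in limma and 0 were higher: Slc22a22, Slc22a28, Slc22a29 and Slc22a30. By comparison, 3.08% of all genes passed as lower and 4.12% as higher. Slc22a22, known in mouse as the prostaglandin carrier OAT-PG, read 9.15, 6.97 and 7.25 log2 on dKO arrays 1, 3 and 5, against 8.30, 9.88 and 8.58 on controls 2, 4 and 6. Its sex-adjusted log2 difference was -1.13 ± 0.16 (SE; limma adjusted p = 0.013), and it was higher in males by 1.74 ± 0.17 (adjusted p = 0.0064).

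Slc22a28 read 9.53, 4.77 and 4.68 log2 on the dKO arrays, against 8.43, 10.66 and 8.24 on the Controls. The dKO females were low and the dKO male lay among the Controls. The log2 difference was -2.78 ± 0.46 (SE; limma adjusted p = 0.020), with -1.13 between the males and -3.61 between the females. Slc22a30 read 5.97, 1.98 and 2.05 log2 on the dKO arrays, against 3.40, 7.14 and 3.36 on the Controls, so the dKO females lay below the dim limit of 2.98 and the size of their fall is not known. It passed as lower (limma adjusted p = 0.0017) and as higher in males (adjusted p = 1.2e-05; the size is not given, since it rests on the same dim values). Its genotype call held in all 6 fits with an array left out but not without the sex term (adjusted p = 0.70). Slc22a29 read 2.93, 3.50 and 3.44 log2 on the dKO arrays, against 5.69, 3.24 and 5.74 on the Controls (limma adjusted p = 0.048). Its groups overlapped, and all arrays but the Control females lay under or near the dim limit, so the size of its difference is not known. Slc22a28 and Slc22a29 lost their calls without dKO 3, dKO 5, control 2 or control 6 (limma adjusted p at most 0.088 and 0.17), and Slc22a22 without control 2 or control 6 (at most 0.059). Without the sex term these 3 lost their calls as well (limma adjusted p = 0.43 for Slc22a22, 0.35 for Slc22a28 and 0.26 for Slc22a29), and Slc22a29 also missed with a trended and robust prior (0.059) and with quantile normalization (0.050).

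Slc22a19, known in rodents as OAT5, had every dKO array below every Control (10.66, 8.23 and 9.37 log2 on dKO arrays, 10.94, 11.09 and 11.04 on Controls) and missed the threshold (limma adjusted p = 0.072). Slc22a28 and Slc22a30 share 93.0% of the aligned bases of their promoter windows, the highest value among the Slc22 genes compared, and cross-hybridisation between such near copies was not tested.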
